A study of Mus musculus with 2 samples.

Results

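The collagen chains of mouse were examined in embryonic fibroblasts labelled as Xbp1 knockout, on day 3 against day 0 of induced adipogenesis. Members were the array probes whose platform gene symbol consists of Col, a number, the letter a and a number, which gave 57 of 29922 gene probes and 38 of the 16637 named genes. Neither the rule nor the grouping of chains into classes used a measured value. Day 3 was 1 array of Xbp1 knockout cells after 72 h in an inducing medium with troglitazone (5 µM), insulin (10 µg/ml), DXM (5 µM) and IBMX (0.25 mM), and day 0 was 1 array of Xbp1 knockout cells at confluence, before induction. Troglitazone activates the nuclear receptor PPARγ, DXM is the labels' abbreviation, and IBMX blocks the breakdown of cAMP. Both days carry the same Xbp1 knockout label, no cells labelled as having intact Xbp1 were analysed here, and no source used here says how many embryos or clones the cells came from. Each array gave 1 single-colour intensity per probe, and the number of arrays limits the precision: with 1 sample per day nothing could be tested, and every difference below compares these 2 samples.

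Collagens are proteins of the extracellular matrix in which chains wind around each other as a triple helix of glycine-rich repeats. The chains are made in the endoplasmic reticulum, where prolines and lysines are hydroxylated before folding, and after secretion fibrillar collagens are trimmed at their ends, assemble and are crosslinked. Fibrillar collagens (types I, II, III, V, XI, XXIV and XXVII) build the fibrils of connective tissue, type IV forms the sheet of basement membranes, type VI forms beaded microfibrils, FACIT collagens sit on the surface of fibrils, and the multiplexins XV and XVIII lie at basement membranes. Fibroblasts are known for a fibrillar matrix, and fat cells are surrounded by a basement membrane. The Xbp1 protein is a transcription factor that adjusts the capacity of the endoplasmic reticulum for secreted proteins such as collagens when unfolded protein builds up.

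Sequences at gene starts are shown for Col4a1 and Col4a2, which are neighbours on chromosome 8 and stood higher on day 3 by nearly the same amount, and for Col18a1 and Col8a1, which had the largest differences in each direction among chains above the detection threshold and unsaturated on both days. They are RefSeq promoter windows of build GRCm38.p6, 250 bases before to 50 after an annotated gene start, written 5′ to 3′ along the gene's strand. Capitals mark matches, on either strand, to CCAAT (the box bound by NF-Y), GGGCGG (the GC box bound by Sp1 and related factors) and TATAAA. The windows are chr8:11312777-11313076 (minus strand) for Col4a1, chr8:11312555-11312854 (plus strand) for Col4a2, chr10:77166481-77166780 and chr10:77113656-77113955 (both minus strand) for 2 annotated starts of Col18a1, and chr16:57754688-57754987 (minus strand) for Col8a1.
Col4a1: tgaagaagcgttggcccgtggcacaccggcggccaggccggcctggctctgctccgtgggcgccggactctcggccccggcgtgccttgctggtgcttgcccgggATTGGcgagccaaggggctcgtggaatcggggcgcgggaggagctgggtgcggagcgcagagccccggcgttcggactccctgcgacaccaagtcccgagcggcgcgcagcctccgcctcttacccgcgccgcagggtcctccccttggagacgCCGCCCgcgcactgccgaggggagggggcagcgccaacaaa
Col4a2: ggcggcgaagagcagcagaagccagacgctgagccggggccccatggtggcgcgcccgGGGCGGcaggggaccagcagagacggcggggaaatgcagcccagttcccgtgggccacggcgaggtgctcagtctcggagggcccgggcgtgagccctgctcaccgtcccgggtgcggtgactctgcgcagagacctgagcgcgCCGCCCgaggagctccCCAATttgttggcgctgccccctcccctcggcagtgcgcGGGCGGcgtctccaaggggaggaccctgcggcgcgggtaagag
Col18a1, first start: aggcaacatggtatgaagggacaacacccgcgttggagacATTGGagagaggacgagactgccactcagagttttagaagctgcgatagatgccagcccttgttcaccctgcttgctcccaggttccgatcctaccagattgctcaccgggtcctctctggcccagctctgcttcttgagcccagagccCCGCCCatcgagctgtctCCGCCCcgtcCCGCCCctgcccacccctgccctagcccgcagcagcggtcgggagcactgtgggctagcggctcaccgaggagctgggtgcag
Col18a1, second start: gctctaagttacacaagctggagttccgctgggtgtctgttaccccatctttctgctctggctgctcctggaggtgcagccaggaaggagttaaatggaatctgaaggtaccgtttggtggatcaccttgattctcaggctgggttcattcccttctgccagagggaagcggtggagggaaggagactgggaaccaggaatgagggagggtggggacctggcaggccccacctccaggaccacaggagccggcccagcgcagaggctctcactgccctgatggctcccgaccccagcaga
Col8a1: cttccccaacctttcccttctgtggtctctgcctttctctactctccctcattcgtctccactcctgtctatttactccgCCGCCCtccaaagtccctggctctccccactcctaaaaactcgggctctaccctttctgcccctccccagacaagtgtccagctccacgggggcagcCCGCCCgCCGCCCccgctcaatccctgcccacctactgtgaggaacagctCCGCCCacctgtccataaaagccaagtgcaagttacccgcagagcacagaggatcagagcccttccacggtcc
The windows of Col4a1 and Col4a2 run in opposite directions and share 78 bases, and their annotated starts lie 21 bases apart. A GC box lies in that shared stretch, so both windows show it, as CCGCCC in the one and GGGCGG in the other. Each of these windows also held 1 CCAAT match, and the Col4a2 window held 3 GGGCGG matches in all, against 1 in the Col4a1 window. The first Col18a1 window held 1 CCAAT and 3 GGGCGG matches and the second held neither, while the Col8a1 window held 4 GGGCGG matches and 0 CCAAT matches. RefSeq windows were listed for 30 of the 38 collagen genes, 33 windows in all. CCAAT matched in 12 of the 33 windows, against 37.4% of all 32851 mouse windows, GGGCGG in 20, against 35.7%, and TATAAA in 5, against 13.6%. Among windows of detected chains, CCAAT matched in 7 of the 16 windows of chains higher on day 3 and in 3 of the 7 windows of chains lower on day 3. GGGCGG matched in 10 of the 16 and in 5 of the 7. A match is a description of these letters.

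The day 3 array was the brighter one, with a median raw intensity of 166 over gene probes, against 78 on the day 0 array, and signals below are after quantile normalization of the arrays to a common distribution. A signal above 122, the median of all normalized gene probes, is called detected, and raw intensities of 65000 or more are called saturated. Of all 16637 named genes, 10656 were detected on at least 1 day. All differences are log2 signals, day 3 minus day 0. The repeat-spot SD of such a difference, from control features printed as 5 or 6 spots, was between 0.34 and 0.43 for log2 signals from 6 to 16 when taken from the median feature, and between 0.58 and 0.90 when pooled over features. It leaves out variation between cultures and hybridizations. Xbp1 gave a signal of 13561 on day 3 and 20936 on day 0, and no source used here places its probe relative to the deletion, so this checks nothing about the label. All 10 fibroblast markers examined were detected, with Dcn saturated on both days and Vim on day 0, and their summed signal was 179943 on day 3 and 218037 on day 0. Among them S100a4 was 2.95-fold lower and Vim at least 1.47-fold lower on day 3, while Postn was 4.84-fold and Lum 3.04-fold higher. Of 9 adipocyte markers on the array 3 were detected. Their summed signal over all 9 was 60140 on day 3 and 9305 on day 0, most of it from Lpl, a lipase gene that was saturated on day 3. Pparg, which encodes the target of troglitazone, was on the other side, with 372.5 on day 3 and 608 on day 0. The other markers were under the threshold on both days. Adipoq read 120.5 on day 3 and 12 on day 0, and Fabp4 read 59.5 on day 3 and 10.5 on day 0. Cidec read 52.5 on day 3 and 12 on day 0, and Plin1 read 44 on day 3 and 21.5 on day 0. Lep read 15 on day 3 and lay below the floor of 10 on day 0. Cfd lay below that floor on day 3 and read 15.5 on day 0. Chondrocyte markers were detected in 2 of 11 cases (Sox9 and Col2a1), with a summed signal of 2481 on day 3 and 3882 on day 0, and Matn1, Matn3 and Cnmd were below the floor on both days. Osteoblast markers were detected in 3 of 7 cases, with sums of 66680 on day 3 and 66674 on day 0 that came mostly from Spp1, which was saturated on both. Summed signals of the epithelial, endothelial, macrophage and neural lists were at most 1116 on day 3 and 1109 on day 0. The part of other cell types in the collagen differences was not tested. In RNA from a whole culture, fewer cells of a type and less RNA per cell cannot be told apart.

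Collagen chains differed in both directions between the days, in shares near those of all detected genes. On at least 1 day 25 of the 38 genes were detected, and 19 of them were detected on each day. Among all 16637 named genes 10656 were detected, 9434 of them on each day. Of the 25, 4 were at least 2-fold higher on day 3 (Col15a1, Col18a1, Col6a3 and Col27a1) and 4 were at least 2-fold lower (Col1a1, Col8a1, Col4a6 and Col10a1). That is 16% in each direction, against 12.8% higher and 10.3% lower among all 10656 detected genes. Among all 2-fold genes, 55.5% were higher on day 3, but 24.3% under median scaling and 92.6% with no normalization. Signals under the threshold enter these counts as read. With such signals set to 122, 2 chains were 2-fold higher, Col18a1 and Col6a3 (8%, against 10.2% of all genes). In the other direction 2 were 2-fold lower, Col1a1 and Col8a1 (8%, against 8.51%). Among genes above the threshold on both days, 10.1% of all genes were 2-fold higher and 8.43% lower. There the same 2 chains in each direction were 2-fold different out of 19 (10.5% each way).

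The median difference of the 25 detected chains was 0.47, against 0.03 for all detected genes. Of these chains 16 lay above 0 and 9 below, against 5486 above and 5160 below among all 10656 detected genes. The median depended on scaling. Over the chains detected in each setting it was 0.18 under cyclic loess, against -0.01 for all genes. Under median scaling it was -0.0029, against -0.49 for all genes, and with no normalization it was 1.13, against 0.67 for all genes. In size, 19 of the 25 differences exceeded their repeat-spot SD from the median feature (76%, against 61.2% of all detected genes) and 13 exceeded the pooled one (52%, against 38.4%). Of the 4 chains 2-fold higher, 3 were so in every scaling that gave them a value (Col15a1, Col18a1 and Col27a1). Of the 4 chains 2-fold lower, 0 were, since each of them was less than 2-fold lower with no normalization. In that setting 35.7% of all detected genes were 2-fold higher and 2.85% lower, against 7.78% and 24.3% under median scaling. The direction of 16 chains was the same in every scaling that gave them a value (quantile, cyclic loess, none, median scaling and the authors' table), 12 of them higher and 4 lower on day 3. The other 9, Col1a2, Col3a1, Col5a1, Col5a2, Col5a3, Col11a1, Col24a1, Col4a5 and Col20a1, changed sign under at least 1 of them. Median scaling differs from no normalization by 1 factor per array, so keeping a direction largely reflects the size of a difference. The authors' table gave values near the quantile ones for bright chains (-1.06 in both for Col1a1). All scalings rescale the same 2 arrays, so none of them is an independent reading. The share of all genes that kept their direction, or a 2-fold difference, in every scaling was not computed.

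**Figure D1:**
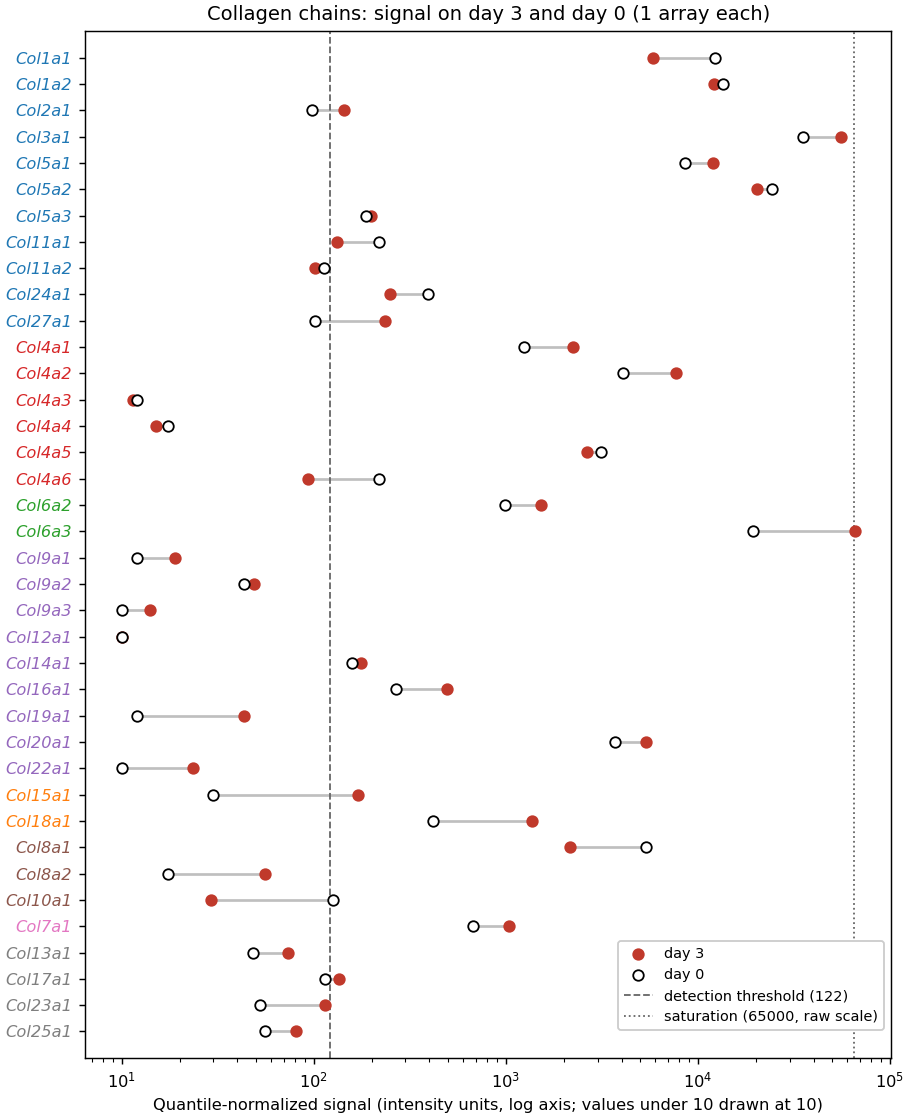
Quantile-normalized signal (log axis, intensity units) of all 38 collagen genes on day 3 (filled) and day 0 (open), 1 array each, by the brightest probe of each gene, with label colours by class and lines at the detection threshold of 122 and at saturation. Signals span the range from the floor of 10 (Col12a1 on both days) to saturation (Col6a3 on day 3), and 13 genes lie left of the threshold on both days.

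The fibrillar chains lay on both sides of 0. All 11 were on the array, 10 were detected, 5 lay above 0 and 5 below, and their median difference was -0.04. That median ran from -0.52 under median scaling to 0.88 with no normalization. Col1a1 and Col1a2 encode the chains of type I collagen, the main fibril protein of skin, bone and tendon. Col1a1 gave a signal of 5849.5 on day 3 and 12227.5 on day 0, a difference of -1.06 or 2.09-fold lower on day 3, against a pooled repeat-spot SD of 0.90. It was lower on day 3 in all 5 scalings, between -1.73 under median scaling and -0.64 with no normalization. Col1a2 gave 12084.5 on day 3 and 13498 on day 0, a difference of -0.16 that was within the repeat-spot SD of 0.35 and turned to 0.26 with no normalization. Thus the partner chains of type I collagen stood 0.90 apart, more than the SD of 0.49 for such a gap from the median feature and less than the pooled 1.27. That gap was -0.93 under cyclic loess, -0.90 with no normalization and -0.90 in the authors' table. A factor common to all probes of an array cancels in such a gap, and chains of similar brightness are scaled alike. The agreement was therefore largely fixed in advance.

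Col3a1, the chain of type III collagen, which is found beside type I in elastic tissues, gave 55557 on day 3 and 35066.5 on day 0, a difference of 0.66 within the pooled SD of 0.90. Its raw day 3 intensity of 64139 lay just under the saturation limit. Its other probe, far from saturation, gave 760.25 and 741, a difference of 0.04, and the brightest probe gave -0.0029 under median scaling. Type V collagen starts and limits the width of type I fibrils, and its chains differed in direction. Col5a1 gave 11950 on day 3 and 8604 on day 0 (0.47, and -0.21 under median scaling). Col5a2 gave 20294.5 on day 3 and 24200 on day 0 (-0.25, and 0.17 with no normalization), and its other probes gave -0.26 and -0.18. The gap between them was 0.73, smaller than the pooled SD of 1.27. It was 0.66 under cyclic loess and 0.71 with no normalization, an agreement that was again largely fixed in advance. The remaining type V chain, Col5a3, gave 197.5 on day 3 and 187.5 on day 0, within the repeat-spot SD of 0.43. Col3a1 and Col5a2 are neighbours on chromosome 1 and lay on opposite sides of 0 (0.66 and -0.25).

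The other fibrillar chains had signals within a few-fold of the threshold. Col11a1, a chain of cartilage fibrils, gave 131.5 on day 3 and 219 on day 0 (-0.74, beyond the pooled SD of 0.69, but 0.24 with no normalization). Col24a1 gave 249 on day 3 and 391 on day 0 (-0.65, but 0.14 with no normalization), with -0.61 by its other probe. Col27a1 gave 235.5 on day 3 and 101.5 on day 0. Its day 0 signal was under the threshold, so it was at least 1.93-fold higher, in the same direction in the 4 scalings that gave it a value. Col2a1, the main chain of cartilage collagen, gave 143.5 on day 3 and 98 on day 0, at least 1.18-fold higher, and Col11a2, another chain of cartilage fibrils, was under the threshold on both days (101 and 112.5).

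Of the 4 detected type IV chains 2 lay above 0 and 2 below, with a median of 0.30 that turned to -0.32 under median scaling. Col4a1 and Col4a2, which together make the common network of basement membranes, were higher on day 3. Col4a1 gave 2231.5 on day 3 and 1236.5 on day 0, a difference of 0.85 or 1.80-fold, above its pooled SD of 0.58. Col4a2 gave 7725 on day 3 and 4058.5 on day 0, a difference of 0.93 or 1.90-fold, just above its pooled SD of 0.90. Both were higher in all 5 scalings, with 0.27 and 0.25 as the smallest values, under median scaling. The Col4a1 difference minus that of Col4a2 was -0.08, inside the SD of 0.54 for such a gap, and their windows are the overlapping ones printed above.

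Col4a5 and Col4a6, chains of a more restricted network, form another pair of neighbours, on chromosome X, with annotated starts 1343 bases apart. Col4a5 gave 2646 on day 3 and 3140.5 on day 0, a difference of -0.25 within its repeat-spot SD of 0.42, and its second probe gave -0.36. With no normalization it turned to 0.19. Col4a6 gave 93 on day 3, under the threshold, and 219 on day 0, so it was at least 1.80-fold lower, while its second probe gave 97, also under it, and 129.5 (-0.42 as read). With no normalization the difference was -0.27, below 2-fold, and the second probe turned to 0.67. Col4a3 and Col4a4, known from kidney, lung and inner ear, read 15 or less on day 3 and 17.5 or less on day 0.

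The beaded chains of type VI were both higher on day 3, and 2 of the 6 mouse chains of this type had a probe named for them on the array. Col6a3, the chain whose cleaved end is released as endotrophin and which is abundant in fat tissue, gave 65474.5 on day 3, saturated, and 19298 on day 0. On the quantile-normalized scale it was about 3.39-fold higher or more. That bound is approximate, because the order among the 140 probes saturated on day 3 is arbitrary, and another of them, Lpl, was given 59293. Its 2 other probes gave smaller differences. One read 534.5 on day 3 and 308 on day 0 (0.80), and the other read 266 on day 3 and 169 on day 0 (0.65). Col6a2 gave 1530 on day 3 and 993 on day 0, a difference of 0.62, just above its pooled SD of 0.58. Both genes were higher in all 5 scalings. Under median scaling, however, Col6a3 came down to 0.89, below 2-fold, and Col6a2 to 0.07.

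**Figure D2:**
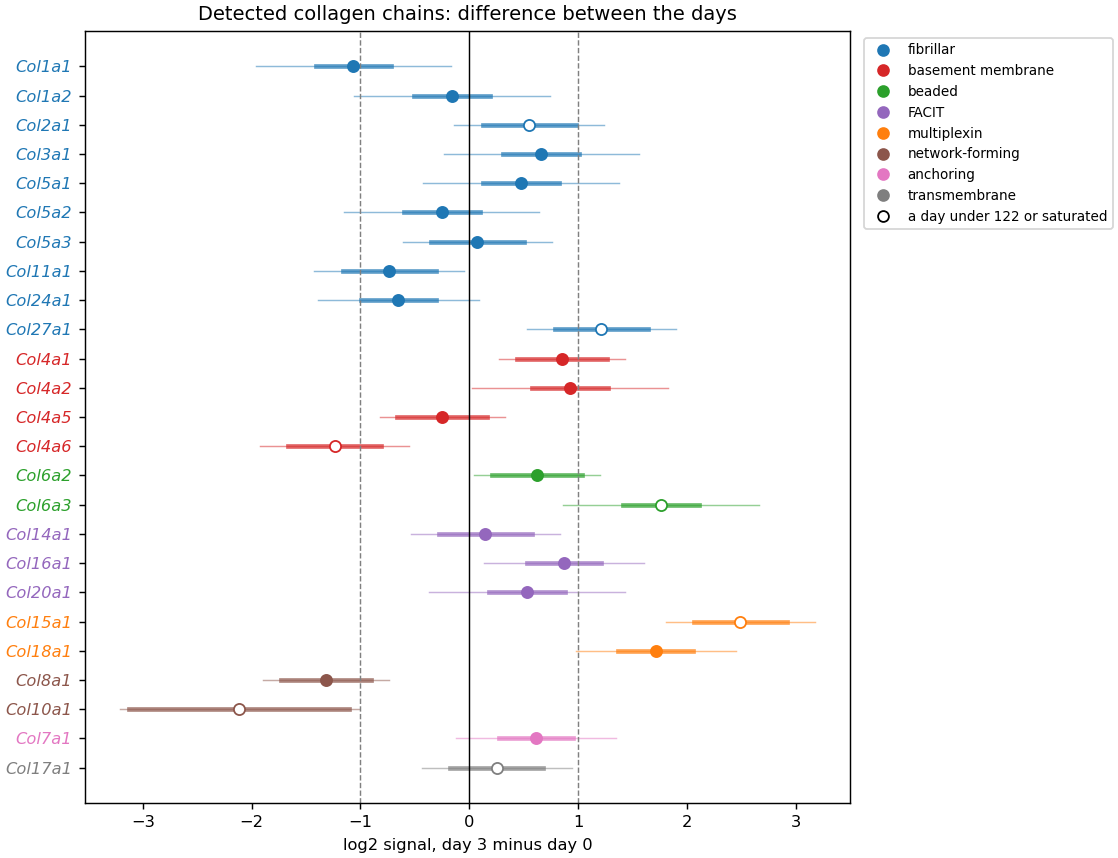
Difference between the days (log2 signal, day 3 minus day 0) of the 25 detected collagen genes, coloured by class. Thick bars are the repeat-spot SD from the median control feature, thin bars the pooled repeat-spot SD, dashed lines mark 2-fold, and open points have a day under 122 or saturated. Col15a1, Col6a3 and Col18a1 lie furthest right, and Col10a1, Col8a1, Col4a6 and Col1a1 lie left of -1.

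Both multiplexins were higher on day 3. Col18a1, whose product carries heparan sulfate and releases endostatin from its end, gave 1369 on day 3 and 417 on day 0, a difference of 1.71 or 3.28-fold, against a pooled SD of 0.74. It was higher in all 5 scalings, from 1.27 under median scaling to 2.36 with no normalization, and the authors' table gave 1.79. This is the largest difference among chains that were above the threshold and unsaturated on both days. Col15a1, a basement membrane chain of muscle, vessels and fat, gave 169 on day 3 and 30 on day 0. Its day 0 signal lay far below the threshold, so it was at least 1.39-fold higher, with the same direction in 4 scalings. Both chains have only 1 probe, so neither difference could be set against a second reading.

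Of 9 FACIT collagens on the array 3 were detected, all above 0 with a median of 0.53, and none was 2-fold different. Col16a1 gave 491 on day 3 and 268.5 on day 0 (0.87, above the pooled SD of 0.74), and it was higher in all 5 scalings. Col20a1 gave 5335 on day 3 and 3685.5 on day 0 (0.53, within the pooled SD of 0.90, and -0.14 under median scaling). Col14a1, a fibril-surface chain of soft connective tissue, gave 175.5 on day 3 and 158.5 on day 0 (0.15, within the repeat-spot SD). The 6 FACIT genes under the threshold were Col9a1, Col9a2, Col9a3, Col12a1, Col19a1 and Col22a1, with at most 49 on day 3 and 43.5 on day 0. Col12a1, a fibril-surface chain of tendon and dense connective tissue, read 7 on day 3 and 4.5 on day 0. A dim reading from 1 probe does not show that the gene was silent.

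Chains outside these classes held differences in both directions. Col8a1, which forms hexagonal networks in vessel walls and the cornea, gave 2154 on day 3 and 5372 on day 0, a difference of -1.32 or 2.49-fold lower, against a pooled SD of 0.58. Its second probe gave 1047.5 on day 3 and 3253.5 on day 0 (-1.64), and Col8a1 was lower in all 5 scalings, at the least by -0.87 with no normalization, below 2-fold. Among the 8 genes with at least 2 detected probes it was the only one at which each of them passed 2-fold. Col10a1, the chain of hypertrophic cartilage, gave 29 on day 3 and 125.5 on day 0, so its bound is only 1.03-fold. Col8a2 was under the threshold on both days (55.5 and 17.5). Col7a1, the chain of the fibrils that anchor skin to its basement membrane, gave 1033.5 on day 3 and 675 on day 0 (0.61), while its other probe gave 69.5, under the threshold, and 146.5 (-1.08 as read, and 0.07 with no normalization). Of the transmembrane chains only Col17a1 was detected, with 136 on day 3 and 114 on day 0, at least 1.11-fold higher, and Col13a1, Col23a1 and Col25a1 were not.

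In all, 13 genes stayed under the threshold on both days. Their signals were at most 114.5 on day 3 and 112.5 on day 0. Against the 95th percentile of empty spots on the same array, a raw intensity of 9 on day 3 and 7 on day 0, 13 of the 13 lay above it on day 3 and 7 on day 0. Among all gene probes, bright ones included, 89.3% lay above it on day 3 and 81.0% on day 0. No fold is given for these genes.

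**Figure D3:**
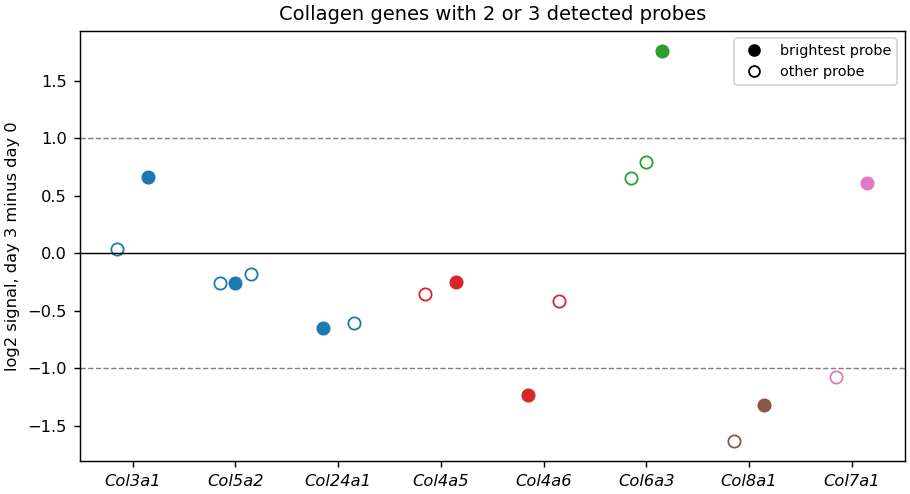
Difference between the days (log2 signal, day 3 minus day 0) by each detected probe of the 8 collagen genes with at least 2 detected probes. Filled points are the brightest probe and open points the others, with dashed lines at 2-fold. Probes of Col5a2, Col24a1, Col4a5 and Col8a1 lie close together, while Col6a3, Col3a1, Col4a6 and Col7a1 spread, with Col7a1 on both sides of 0 (on 1 side with no normalization).

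Readings by different probes of a gene were compared where possible. Of the 38 genes, 16 had 2 or 3 probes, and 8 of these had at least 2 detected probes. Probes of 7 of the 8 gave one direction, and those of Col7a1 did not, although with no normalization both Col7a1 probes were above 0. In that setting the probes of Col4a6 gave opposite signs. For Col6a3 and Col3a1 the other probes gave smaller differences than the brightest. No source used here says which transcripts the probes cover.

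**Figure D4:**
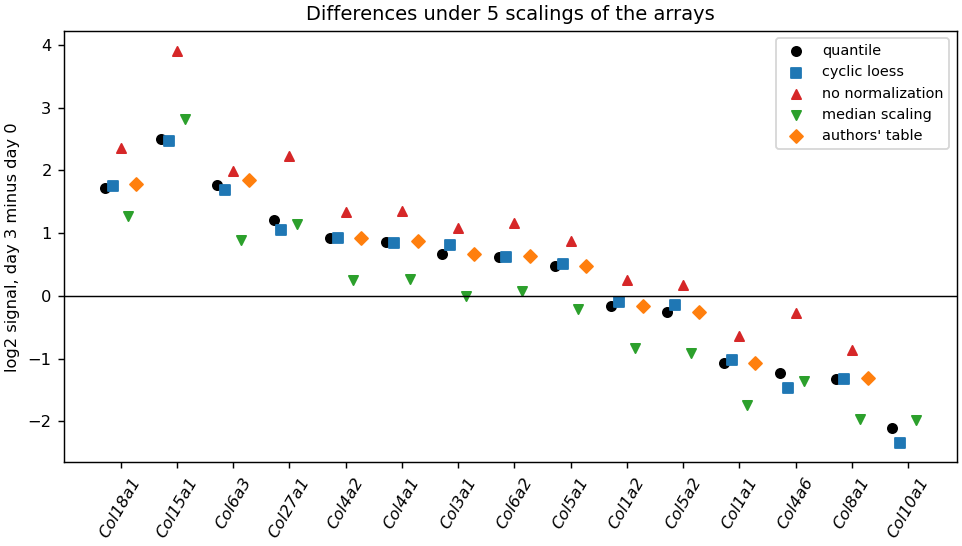
Difference between the days (log2 signal, day 3 minus day 0) of 15 collagen genes under quantile normalization, cyclic loess, no normalization, median scaling and in the authors' table, where a value exists. Col18a1, Col15a1, Col6a3, Col27a1, Col4a2, Col4a1 and Col6a2 stay above 0 and Col1a1, Col4a6, Col8a1 and Col10a1 stay below it, while Col3a1, Col5a1, Col1a2 and Col5a2 cross it.

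Genes that modify, fold, process, crosslink, bind or break down collagens, or are known to regulate their transcription, were read in 8 lists. They gave 77 detected genes of 91 on the array, of which 9 were 2-fold higher (11.7%, against 12.8% of all detected genes) and 12 were 2-fold lower (15.6%, against 10.3%), with a median of 0.00. The 2-fold difference held in every scaling that gave a value for 6 of the 9 and 5 of the 12. That share was not computed for all genes. The hydroxylases and other modifying enzymes stood near 0. All 15 were detected, 0 were 2-fold different and the median was 0.14. The largest differences among them were those of the prolyl hydroxylase subunit gene P4ha3 (at least 1.25-fold lower, turning to 0.23 with no normalization), the galactosyltransferase gene Colgalt2 (0.79), the lysyl hydroxylase gene Plod2 (0.76) and the prolyl hydroxylase gene P3h1 (0.42, turning to -0.10 under median scaling). In folding and secretion, 2 of 11 were 2-fold higher and 0 lower (median 0.14). These were Fkbp7 (9167.5 on day 3 and 3441 on day 0, 2.66-fold) and Fkbp14 (11337.5 on day 3 and 5419.25 on day 0, 2.09-fold), prolyl isomerases of the endoplasmic reticulum. Under median scaling neither was 2-fold, at 0.74 for Fkbp7 and 0.40 for Fkbp14. The list's next largest differences were Tmem131 (-0.83) and Sec23a (0.69), a coat protein gene of secretory vesicles whose second probe gave -0.93.

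Processing genes were split. Of 7 detected, 1 was 2-fold higher and 2 were lower as read, and 1 was lower at its bound (median 0.00). Among all detected genes 12.8% were higher and 10.3% lower as read, and 8.51% were lower at their bounds. Adamts2, which removes the front propeptide of fibrillar collagens, gave 848.5 on day 3 and 2043.5 on day 0 (2.41-fold lower, -1.15 by its second probe, and -0.74 with no normalization). Pcolce, which enhances removal of the other propeptide, gave 15312 on day 3 and 30171 on day 0 (1.97-fold lower). Pcolce2 was at least 1.21-fold lower and Adamts3 at least 1.43-fold higher. Among the crosslinking oxidases, Loxl4 was at least 4.18-fold lower. Loxl2 gave 0.69, with -0.15 by its second probe, and Loxl1 gave -0.01, a sign that changed with scaling. These 3 were the detected ones of 4 on the array, with a median of -0.01.

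Receptors and breakdown genes also held members on both sides. Mrc2, the receptor that takes up collagen fragments, gave 5300.25 on day 3 and 1790 on day 0 (2.96-fold higher), but its second probe gave 0.33. Ddr2, a receptor kinase for fibrillar collagens, was 2.15-fold lower. Of 6 detected receptors these 2 were the 2-fold cases (16.7% each way, against 12.8% higher and 10.3% lower among all detected genes, median -0.27). Neither held in every scaling, with Mrc2 at 0.94 under median scaling and Ddr2 at -0.38 with no normalization. Itga2 (at least 1.03-fold lower) and Ddr1 (-0.31) changed sign with no normalization. Of 10 detected breakdown genes, 0 were 2-fold higher, against 12.8% of all detected genes. As read 3 were 2-fold lower (30%, against 10.3%), 1 of them also at its bound, where 8.51% of all detected genes were. The median was -0.39, and -0.10 at the bounds. Pepd, which frees proline from collagen dipeptides, was 2.76-fold lower, Prep was 1.84-fold lower, and the membrane proteases Fap and Mmp16 were at least 1.02-fold and 1.23-fold lower. None of the 3 lower calls held with no normalization, where Pepd gave -0.94, Fap -0.98 and Mmp16 -0.93. On the other side, and named after their values were seen, the collagenase gene Mmp13 and the gelatinase gene Mmp2, both saturated on day 3, were at least 1.19-fold and 1.22-fold higher, and Ctsk was 1.75-fold higher.

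Fibril partners had the widest range, from -3.67 to 4.33, with 5 of 12 being 2-fold higher (41.7%, against 12.8% of all detected genes) and 3 lower (25%, against 10.3%), and a median of 0.05. Kera, a small proteoglycan of cornea, was at least 10.1-fold higher, and Postn was 4.84-fold higher. Thbs1 was 12.7-fold lower, and Fmod, a proteoglycan that binds type I fibrils, was 4.57-fold lower. Among 14 detected transcription factors known to act on collagen genes, 0 were 2-fold higher, against 12.8% of all detected genes. As read 2 were lower (14.3%, against 10.3%), and the median was -0.30. Scx, a regulator of tendon collagens, gave 136 on day 3 and 511.25 on day 0 (3.76-fold lower). Smad2 was at least 1.23-fold lower (-0.16 with no normalization), Sox9 gave -0.73 and Cebpb gave 0.69.

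**Figure D5:**
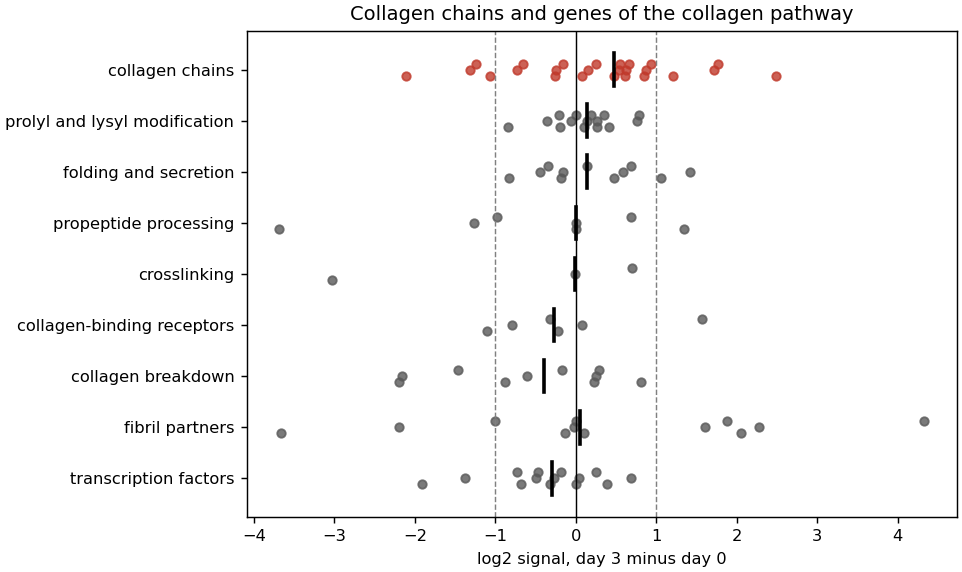
Difference between the days (log2 signal, day 3 minus day 0) of detected collagen chains (top row) and of detected genes in 8 lists of the collagen pathway. Each point is a gene, black bars are medians and dashed lines mark 2-fold. The medians lie between -0.39 (collagen breakdown) and 0.47 (collagen chains), and each list holds genes on both sides of 0.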

How the data were processed

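Single-colour (Cy5) arrays were compared for 2 samples, 1 on day 3 and 1 on day 0, grouped by the stage in the labels. Per the labels' protocols, 1 µg of total RNA was amplified and labelled by Phalanx. The deposited per-sample tables hold linear intensity values for 39200 spots, and some are negative. The 7402 empty spots had a median of 0 on both days. No source used here names the scanner, software or background method. The authors' table of the series holds normalized intensity values for 11482 gene probes, by a method not stated, with a linear scale, no centring (column medians of 1414 on both days) and, on day 0, the rank order of the per-sample table.

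The 29922 gene probes were quantile normalized with limma 3.58.1 in R 4.3.3, floored at 10 and log2-transformed. Python 3.11.15 was used for the rest. The normalization was tested on simulated data with 1 shift common to all probes and equal numbers of raised and lowered probes. The arrays here differed more at low intensities (10th percentile 9 on day 3 and 3 on day 0) than at high ones (90th percentile 4548 and 3418). That simulation did not cover such a difference. Of 21020 probes with 1 symbol, 17558 symbols were current in a GRCm38.p6 gene table, 3410 were synonyms and 52 were kept, and 8902 probes had none. A gene was represented by its probe of highest mean log2 signal. A fold against a signal under 122 or a saturated one is given as a bound, and log2 differences are as read. Bounds from saturated signals are approximate, since the order of saturated probes within an array is arbitrary. With 1 sample per day no test was made. The members, lists, thresholds and alternatives were chosen with earlier results of these data known. Named were 2-fold and saturated collagens, set chains and up to 4 genes per list with the largest differences. The alternatives were other scalings, offset, floor, filters, probe choice and the authors' table.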

Additional observations from a re-analysis of the deposited data

How the results depend on the processing

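The counts of 2-fold chains (4 higher and 4 lower) and their median (0.47) depended on the processing as follows, and the cause was not tested beyond what each setting's construction fixes. The median was -0.0029 under median scaling, 0.18 under cyclic loess (0.19 relative to all detected genes), 1.13 with no normalization, 0.39 with an offset of 50, 0.58 in the authors' table (16 genes), 0.25 with the mean of all probes, 0.075 with every probe on its own, 0.36 without the saturated gene and 0.23 with dim signals raised to the threshold. With no normalization 15 chains were 2-fold higher and 0 lower, against 35.7% and 2.85% of all detected genes. Settings relative to the median of all detected genes were chosen after seeing the data. With that median of 0.67 subtracted from the unnormalized differences there were 5 higher and 2 lower chains (16.5% and 10.5% of all detected genes), and with -0.49 subtracted under median scaling 6 higher and 3 lower (15.1% and 10.1% of all). Higher genes made up 55.5% of all 2-fold genes in the main setting, 49.1% under cyclic loess, 24.3% under median scaling and 92.6% with no normalization, and once relative 59.8% under median scaling and 61.0% with no normalization. With no detection filter 8 were higher, against 13.5% of all genes, and with a threshold of 12 from the empty spots 8, against 14.9%. Counts were 2 higher and 2 lower where both days had to exceed the threshold, in the authors' table, and with dim signals raised to the threshold. Over all genes the shares higher and lower were, in that order, 10.1% and 8.43%, 9.91% and 8.46%, and 10.2% and 8.51%. None of the 8 chains at least 2-fold different changed direction in any setting that gave it a value, but they were picked for large differences. Col3a1 and Col5a1 turned negative under median scaling and Col1a2 and Col5a2 turned positive with no normalization. Of 238 other comparisons of single chains and classes with the main value, 180 moved by less than the error from repeat spots and 58 by more. That error was the one from the median feature, divided for a class by the square root of its number of genes. Many of the 180 could hardly move, since a higher floor or raised dim signals leave bright genes as they were. With no normalization 21 moved and 1 did not, and under median scaling 15 moved and 8 did not. The 2 arrays allow no leave-one-out check. No paired analysis was possible because each day has 1 sample.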

Other observations

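A probe outside the rule, annotated with the older symbol Emid2, belongs to Col26a1 in the current gene table. It was chosen after its values were seen. It gave a signal of 46.5 on day 3 and 6 on day 0, below the detection threshold of 122 on both days, so no fold is given.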
